A study of Mus musculus with 9 samples.

Results

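The genes described are 9 paracrine factor genes of mammary fibroblasts: the fibroblast growth factors Fgf2, Fgf7 and Fgf10, the receptor gene Fgfr1, the hepatocyte growth factor gene Hgf, and the epidermal growth factor (EGF) family ligands Hbegf, Areg, Ereg and Nrg1. They were chosen by name, and all 9 were among the 11931 genes of the deposited table. Normal mammary fibroblasts came from mammary fat pads of BALB/c females aged 12 weeks and recovered on collagen for 1 week before the experiment. The 3 groups were fibroblasts kept with 4T1-GFP cells for 5 days, fibroblasts kept with 4T1-GFP cells for 3 days, and fibroblasts kept alone for 5 days, with 3 libraries in each. 4T1 is a mouse mammary carcinoma line, which here carried green fluorescent protein (GFP). All groups, the monocultures included, were sorted for cells negative for GFP and positive for podoplanin, a surface protein of fibroblasts, before 3′ end mRNA sequencing. There was no monoculture of 3 days, so the 3-day co-culture was set against the 5-day monoculture. The labels do not tell if libraries of 1 group came from separate cultures or animals, so p-values measure only the spread between these libraries.

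Values are the authors' normalised read counts, and the reads recovered from them numbered 1459381 to 1987168 in the 5-day co-cultures, 1048471 to 2579766 in the 3-day co-cultures and 2623911 to 3567326 in the monocultures. For replicate 2 of the 5-day co-culture the column name mentions no 4T1 cells, and its place was found by elimination of the names of the other samples. All 11 fibroblast markers looked for were in the table, with summed values of 39542 to 53717 in 5-day co-cultures, 44358 to 55600 in 3-day co-cultures and 46198 to 63790 in monocultures. Single fibroblast markers differed more than these sums: 6 of the 11 were lower at 5 days and 5 at 3 days against monoculture. Of 17 markers of epithelial and carcinoma cells 15 were in the table, and their sums were 1137.3 to 1566.6 in 5-day co-cultures and 1151.5 to 1324.4 in 3-day co-cultures, against 54.3 to 85.3 in monocultures. Cldn7 and Krt5 were not in the table, and Cldn3 and Elf3 were at 0 in all 3 monocultures. The sums of 7 leukocyte markers were 68.5 to 152.8 in 5-day co-cultures, 122.9 to 355.1 in 3-day co-cultures and 98.9 to 267.8 in monocultures. Ptprc and Adgre1, which define leukocytes and macrophages, were among the leukocyte markers not in the table. In sorted bulk samples, fewer cells of a type and less RNA per cell cannot be told apart.

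Paracrine ligands of these families carry signals between stroma and epithelium in the mammary gland. FGF7 and FGF10 are made by mesenchymal cells and act mainly on an epithelial form of FGFR2, HGF acts on MET, and all of them stimulate growth and branching of epithelium. Ligands of the EGF family are made as membrane-bound precursors, are released by metalloproteases such as ADAM17, and act on EGFR and its relatives ERBB3 and ERBB4. FGF and HGF signals, and that of heparin-binding EGF-like growth factor (HB-EGF), also depend on heparan sulfate at the cell surface, and all of these receptors signal through the ERK kinases.

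The bases just before a RefSeq transcription start are shown for the ligand gene with the deepest fall, Fgf10, and for a ligand gene that rose, Areg. Of the 5 members whose RefSeq promoter sequence was used here, only these were called at both times of co-culture. Hbegf was called at both times too, but its promoter was not among those used. The stretches run from chr13:118714549-118714698 and chr5:91139449-91139598 on GRCm38.p6, both on the plus strand, 5′ to 3′, and end at the base before that start. For Areg it is also the first base of the gene in GENCODE M21, whereas for Fgf10 it lies 44908 bases downstream of the first base of the GENCODE gene, whose span is given with its values, and which start these fibroblasts used was not tested. Capitals mark matches to the 8-letter cyclic AMP response element TGACGTCA and to the TATA box TATAAA.
Fgf10: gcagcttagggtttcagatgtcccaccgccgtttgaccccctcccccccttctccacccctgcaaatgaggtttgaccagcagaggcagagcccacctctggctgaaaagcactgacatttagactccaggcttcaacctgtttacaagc
Areg: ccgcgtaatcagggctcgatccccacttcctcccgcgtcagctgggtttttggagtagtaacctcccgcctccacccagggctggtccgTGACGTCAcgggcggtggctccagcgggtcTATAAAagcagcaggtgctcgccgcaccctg
The Areg stretch held 1 TGACGTCA, its first base 61 bases before the start, and 1 TATAAA at 31 bases before it, and its GC content was 64.7%. The Fgf10 stretch held neither, with a GC content of 56.0%. Both strands of the 250 bases before the start were searched, and 1.55% of 32851 RefSeq promoters of that length held TGACGTCA and 12.4% held TATAAA. The AP-1 motif TGANTCA, found in 6.75% of those promoters, was not in this window of Areg or Fgf10. Of the other members, the promoters of Fgf2, Fgf7 and Hgf were searched, and none of the 3 motifs was in their windows. A match describes the letters only.

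After 5 days with 4T1-GFP cells, 4 of the 9 genes had changed against monoculture (limma, adjusted p under 0.05): Hbegf and Areg were higher, and Fgf10 and Hgf were lower. Over all 10639 genes tested, 24.0% were called in this comparison, 12.6% as higher and 11.4% as lower. After 3 days, again 4 of the 9 had changed against monoculture, where 20.0% of all genes were called: Hbegf, Areg and Ereg were higher (10.6% of all genes) and Fgf10 was lower (9.37% of all genes). Between 5 and 3 days of co-culture 2 of the 9 had changed, Fgf10 and Ereg, both lower at 5 days, where 6.91% of all genes were called and 3.71% as lower. The values of the compared groups did not overlap for 5, 4 and 5 of the 9 genes in these comparisons, and for 40.9%, 37.4% and 24.6% of all genes. The median log2 fold change of the 9 was -0.06, 0.27 and -0.77 in the same order, and that of all genes -0.01, 0.00 and -0.01. All 9 passed the filter on low values, although only 1 of the 3 5-day co-cultures reached its level of 5 for Fgf10 and only 2 of the 3 monocultures for Areg and for Fgf2. Both comparisons with monoculture use the same 3 monoculture libraries.

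**Figure D1:**
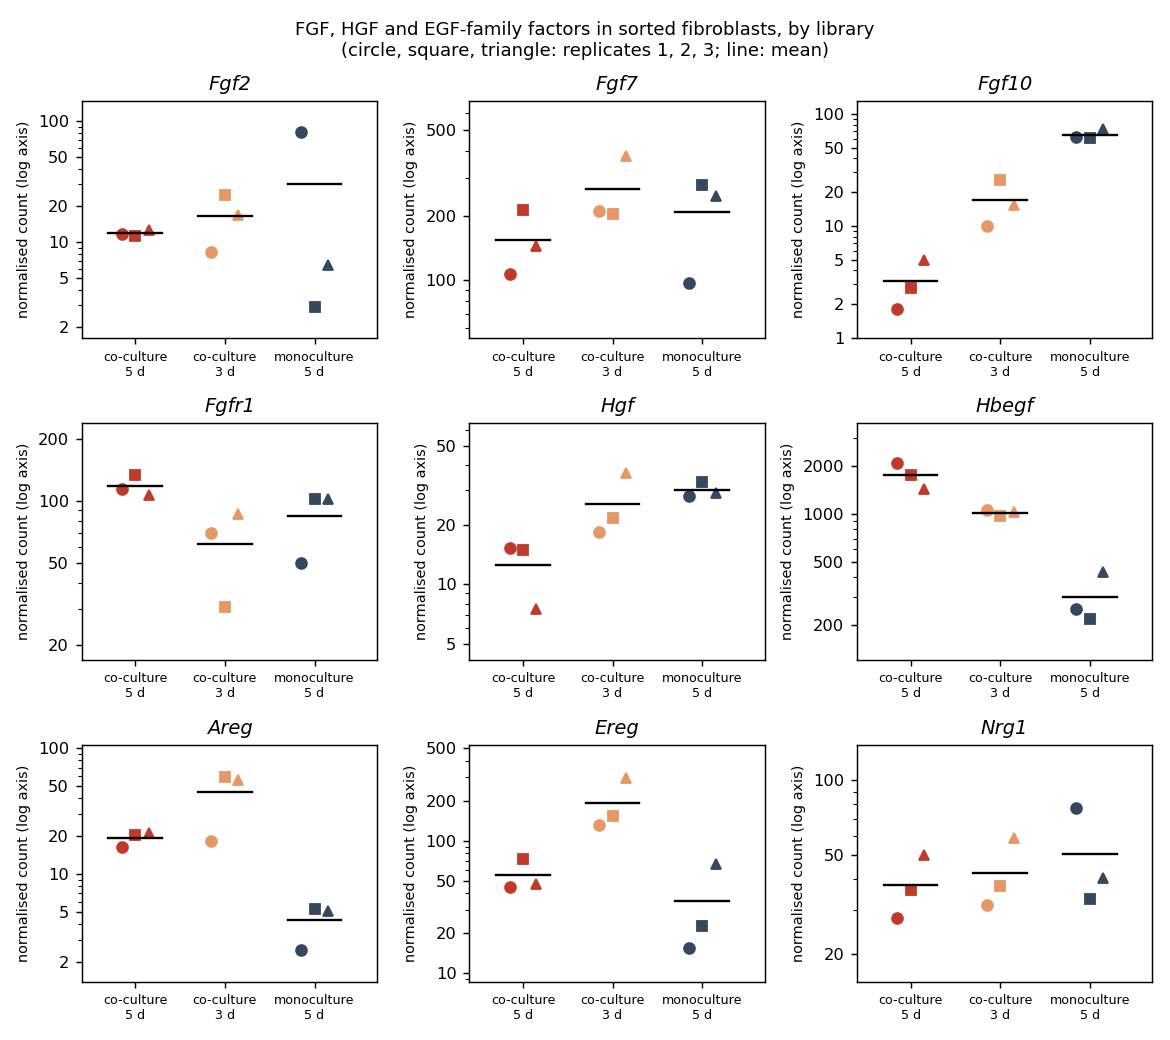
Normalised read counts of the 9 genes in each library (points, log axis), in 5-day co-culture, 3-day co-culture and monoculture, with the mean of each group. Hbegf stands highest at 5 days and Fgf10 in monoculture with no overlap, whereas the 3 groups overlap for Fgf7 and Nrg1.

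**Figure D2:**
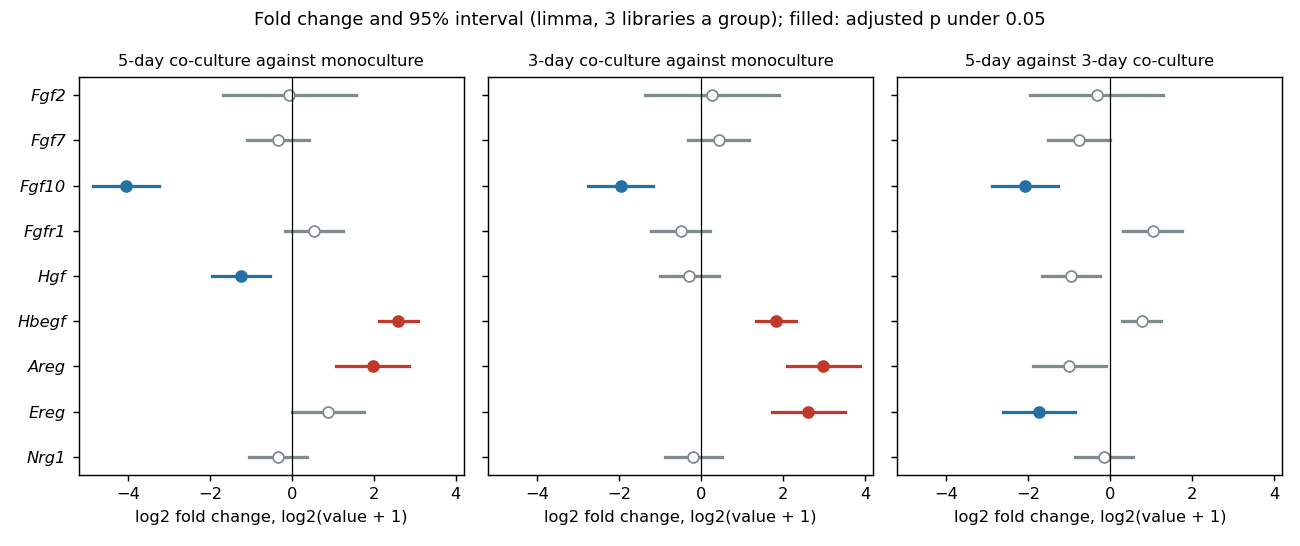
Log2 fold changes of the 9 genes with 95% confidence intervals from limma, for 5-day co-culture against monoculture, 3-day co-culture against monoculture, and 5-day against 3-day co-culture. Fgf10 lies at -4.04, -1.96 and -2.08, and Hbegf at 2.60, 1.83 and 0.77.

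Fgf10, a ligand for epithelial FGFR2 that is needed for mammary bud formation in the mouse embryo, was the member that fell furthest. It lies on chromosome 13 at 118669791 to 118792115 (mm10, plus strand). Its normalised counts were 1.8, 2.8 and 5.0 in the 5-day co-cultures, 10.0, 25.8 and 15.3 in the 3-day co-cultures, and 61.9, 60.6 and 72.6 in the monocultures. Every 5-day library was below every 3-day library, and every 3-day library was below every monoculture. The group means were 3.2 ± 1.64, 17.0 ± 8.04 and 65.0 ± 6.59 (SD, n = 3 each). The monoculture mean was 20.3 times that of the 5-day co-culture and 3.82 times that of the 3-day co-culture. On the log2(value + 1) scale Fgf10 fell by 4.04 ± 0.38 (SE) at 5 days (limma, adjusted p = 1.1e-06) and by 1.96 at 3 days (adjusted p = 0.0016), and it was 2.08 lower at 5 than at 3 days (log2 fold change -2.08, 95% confidence interval -2.88 to -1.28, adjusted p = 0.0037). All 3 calls were kept in each of 21 alternative fits. The 5-day values rest on few reads, 9 over the 3 libraries, against 54 over the 3-day co-cultures and 339 over the monocultures, so the size of the 5-day difference is less sure than its direction.

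Fgf7, which encodes keratinocyte growth factor, a fibroblast product that stimulates epithelial cells, showed no call. The gene is on chromosome 2 at 126034658 to 126091185 (plus strand). Its counts were 106.9, 213.3 and 144.8 in the 5-day co-cultures, 210.9, 204.0 and 381.2 in the 3-day co-cultures, and 97.2, 278.8 and 248.1 in the monocultures. The monocultures alone spanned the whole range of the 5-day values, and the groups overlapped in every comparison. Against monoculture its log2 fold change was -0.34 at 5 days (95% confidence interval -1.09 to 0.41, limma adjusted p = 0.54) and 0.43 at 3 days (-0.32 to 1.18, adjusted p = 0.44). For 5 against 3 days it was -0.77 (-1.52 to -0.02, adjusted p = 0.21).

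Fgf2, which encodes basic FGF, a ligand of broad action on mesenchymal and endothelial cells, was set apart by a single library. It lies on chromosome 3 at 37348346 to 37410108 (plus strand). Its counts were 11.7, 11.2 and 12.5 in the 5-day co-cultures, 8.3, 24.4 and 16.7 in the 3-day co-cultures, and 81.7, 2.9 and 6.4 in the monocultures. Replicate 1 of the monocultures held 132 of their 148 reads, and the other 2 monocultures lay below every co-culture library. With all libraries the co-cultures of 5 days differed from monoculture by -0.06 on the log2 scale (95% confidence interval -1.69 to 1.56, limma adjusted p = 0.97) and those of 3 days by 0.27 (-1.36 to 1.89, adjusted p = 0.84). Without monoculture replicate 1 it was 1.25 at 5 days (adjusted p = 0.078) and 1.58 at 3 days (adjusted p = 0.030), the only call for Fgf2 among its alternatives, where adjusted p lay between 0.030 and 0.98 at 3 days and between 0.078 and 1.0 at 5 days. The 5-day co-cultures, with 35 reads in all, and the 3-day co-cultures, with 52, differed by -0.33 on the log2 scale (-1.96 to 1.29, adjusted p = 0.85). Fgf2 shares 640 exonic bases with Nudt6 on the opposite strand, and the strand setting of the counting is not given in the sources used here, so reads of the pair cannot be told apart. Nudt6 counts were 12.6, 7.5 and 12.5 in the 5-day co-cultures, 26.6, 25.1 and 20.9 in the 3-day co-cultures, and 18.6, 22.1 and 11.6 in the monocultures. In monoculture replicate 1, where Fgf2 was at 81.7, Nudt6 was at 18.6, and the part of Nudt6 reads in the Fgf2 values was not tested.

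Fgfr1, the main FGF receptor gene of mesenchymal cells, was highest in the 5-day co-cultures without passing the test. The gene is on chromosome 8 at 25513654 to 25575718 (plus strand). Its counts were 115.0, 133.2 and 107.4 in the 5-day co-cultures, 69.7, 30.6 and 86.3 in the 3-day co-cultures, and 50.1, 102.4 and 102.8 in the monocultures. The 5-day values lay above all others, and the 3-day values overlapped those of the monocultures. The log2 fold change was 0.54 at 5 days against monoculture (95% confidence interval -0.18 to 1.26, limma adjusted p = 0.28) and -0.50 at 3 days (-1.21 to 0.22, adjusted p = 0.33). With array weights, which lower the influence of the more variable libraries, the 3-day value was -1.05 (adjusted p = 0.017; 0.017 to 0.92 over the alternatives). For 5 against 3 days it was 1.04 (0.32 to 1.75, adjusted p = 0.078). That difference passed in 4 of the 21 alternatives, among them those without 3-day replicate 3 (1.33, adjusted p = 0.031) and without monoculture replicate 1 (adjusted p = 0.042), with adjusted p between 0.010 and 0.30 over all of them.

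Hgf encodes a ligand of mesenchymal cells for the epithelial receptor MET, which stimulates motility and branching, and it was lower in the 5-day co-cultures. It lies on chromosome 5 at 16553495 to 16620152 (plus strand). Its counts were 15.3, 14.9 and 7.5 in the 5-day co-cultures, 18.3, 21.6 and 36.2 in the 3-day co-cultures, and 27.9, 32.7 and 28.9 in the monocultures. The 5-day values lay below all others, and the 3-day values lay on both sides of the monocultures. The means were 12.6 ± 4.39, 25.4 ± 9.53 and 29.8 ± 2.53 (SD, n = 3 each), from 39, 68 and 158 reads. Hgf fell by 1.24 ± 0.34 (SE) on the log2 scale at 5 days against monoculture (limma, adjusted p = 0.013). This call was lost without 5-day replicate 3, at -0.93 (adjusted p = 0.060; 0.0073 to 0.060 over the alternatives). For the 3-day co-cultures the log2 fold change was -0.28 (95% confidence interval -0.99 to 0.43, adjusted p = 0.61), and between 5 and 3 days it was -0.96 (-1.67 to -0.25, adjusted p = 0.097).

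Hbegf encodes HB-EGF, a ligand of EGFR and ERBB4, and it rose at both times of co-culture. Its counts were 2092.6, 1761.2 and 1428.2 in the 5-day co-cultures, 1057.8, 978.7 and 1030.9 in the 3-day co-cultures, and 253.1, 216.8 and 430.6 in the monocultures. The groups stood in the order 5 days, 3 days and monoculture with no overlap, and the 3-day libraries were close to each other. The means were 1761 ± 332, 1022 ± 40.2 and 300.2 ± 114 (SD, n = 3 each), which made the 5-day mean 5.87 times and the 3-day mean 3.41 times that of monoculture. Hbegf rose by 2.60 ± 0.23 (SE) on the log2 scale after 5 days with 4T1-GFP cells (limma, adjusted p = 5.1e-07) and by 1.83 after 3 days (adjusted p = 3.3e-05), and both calls were kept in all 21 alternatives. The difference between 5 and 3 days was 0.77 (95% confidence interval 0.29 to 1.25, adjusted p = 0.053), just outside the threshold. That difference passed in 7 of the 21 alternatives, which include the fit with the replicate number as a block (adjusted p = 0.048), that without monoculture replicate 2 (adjusted p = 0.038) and that without monoculture replicate 3 (adjusted p = 0.023), with adjusted p between 0.022 and 0.18 over all of them.

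Areg encodes amphiregulin, an EGFR ligand that pubertal mammary duct growth requires in the mouse, and it too rose at both times. It lies on chromosome 5 at 91139599 to 91148432 (plus strand). Its counts were 16.2, 20.5 and 21.2 in the 5-day co-cultures, 18.3, 59.2 and 55.7 in the 3-day co-cultures, and 2.5, 5.3 and 5.1 in the monocultures. Every co-culture library was above every monoculture, and replicate 1 of the 3-day co-cultures lay within the 5-day range. The means were 19.3 ± 2.71, 44.4 ± 22.7 and 4.3 ± 1.56 (SD, n = 3 each), from 57, 136 and 23 reads. The 5-day mean was 4.49 times and the 3-day mean 10.3 times that of monoculture. Areg rose by 1.98 ± 0.42 (SE) on the log2 scale after 5 days (limma, adjusted p = 0.0026) and by 2.98 after 3 days (adjusted p = 0.00010), and both calls were kept in all 21 alternatives. Its 5-day values were lower than its 3-day values by a log2 fold change of -1.0 that did not pass the test (95% confidence interval -1.89 to -0.11, adjusted p = 0.17), and without 3-day replicate 1 it was -1.53 (adjusted p = 0.025; 0.025 to 0.45 over the alternatives).

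Ereg encodes epiregulin, a ligand of EGFR and ERBB4, and was highest at 3 days. It lies upstream of Areg on chromosome 5, at 91074622 to 91093646, on the same strand and with 45952 bases between the 2 genes. Its counts were 44.9, 72.6 and 47.4 in the 5-day co-cultures, 131.2, 154.5 and 295.0 in the 3-day co-cultures, and 15.5, 22.6 and 66.2 in the monocultures. The 3-day values lay above all others, whereas monoculture replicate 3 fell within the 5-day range. The means were 55.0 ± 15.3, 193.6 ± 88.6 and 34.8 ± 27.5 (SD, n = 3 each), so that the 3-day mean was 5.57 times that of monoculture (10.2 times without monoculture replicate 3) and 3.52 times that of the 5-day co-culture. Ereg rose by 2.62 on the log2 scale at 3 days against monoculture (95% confidence interval 1.74 to 3.50, limma adjusted p = 0.00031), in all 21 alternatives. Its 5-day co-cultures differed from monoculture by 0.88 on the log2 scale (0.00 to 1.76, adjusted p = 0.14), and without monoculture replicate 3 it was 1.47 (adjusted p = 0.0065; 0.0065 to 0.50 over the alternatives). It was lower at 5 than at 3 days, with a log2 fold change of -1.74 (-2.62 to -0.86, adjusted p = 0.019). That call was lost without 5-day replicate 1 (-1.61, adjusted p = 0.078), 5-day replicate 3 (-1.65, adjusted p = 0.080), 3-day replicate 2 (-1.86, adjusted p = 0.057) or 3-day replicate 3 (-1.39, adjusted p = 0.068), and over all alternatives adjusted p lay between 0.00076 and 0.080.

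Nrg1 encodes neuregulin 1, a ligand of ERBB3 and ERBB4, and showed no call. The gene is on chromosome 8 at 31814551 to 32884029 (minus strand). Its counts were 27.9, 36.3 and 49.9 in the 5-day co-cultures, 31.6, 37.6 and 58.4 in the 3-day co-cultures, and 77.4, 33.2 and 40.5 in the monocultures. The groups overlapped in every comparison, and the highest library was monoculture replicate 1. The log2 fold change was -0.34 at 5 days against monoculture (95% confidence interval -1.04 to 0.36, limma adjusted p = 0.51), -0.19 at 3 days (-0.89 to 0.51, adjusted p = 0.73) and -0.15 between 5 and 3 days (-0.85 to 0.55, adjusted p = 0.84). For every member whose compared groups did not overlap, the exact two-sided permutation test gave p = 0.1, the smallest that 3 libraries against 3 allow.

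The co-cultures also differed from the monocultures in RNA of epithelial or carcinoma type. Of the 14 tested epithelial and carcinoma markers, 13 were higher than in monoculture at 5 days and 13 at 3 days (limma), and 1, Lcn2, was lower at 5 than at 3 days, a call lost without 5-day replicate 2 or 3-day replicate 2. Epcam, which defines epithelial cells, had counts of 14.4, 14.9 and 27.5 in the 5-day co-cultures, 21.6, 18.8 and 19.5 in the 3-day co-cultures, and 0, 0.5 and 0 in the monocultures. The summed markers were 1279.6, 1137.3 and 1566.6 in the 5-day co-cultures and 1273.5, 1151.5 and 1324.4 in the 3-day co-cultures, against 54.3, 83.1 and 85.3 in the monocultures. Hbegf, Areg and Ereg are also made by epithelial cells. Hbegf and Areg were higher at both times, as these markers were, while Ereg passed at 3 days only, and the part of the markers' cells in these results was not tested. The ranges of the sums at 5 and 3 days overlapped, while those of Hbegf, Ereg and Fgf10 did not. Some single markers did separate by day. Krt8, Krt19 and Wfdc2 were higher at 5 than at 3 days with no overlap, as was Hbegf. Lcn2 and Krt14 were lower with no overlap, as were Ereg and Fgf10, and the other tested markers overlapped. The sums therefore cannot tell the part of the markers' cells in the differences between days, which was not tested. Of the 11 fibroblast markers, 1 (Vim) was higher and 6 (Pdgfra, S100a4, Thy1, Col3a1, Pdgfrb and Dcn) were lower at 5 days against monoculture, with a median log2 fold change of -1.38. At 3 days 0 were higher and 5 were lower, with a median of -0.12, and between 5 and 3 days 1 was higher and 3 were lower. Pdgfra, a receptor gene that marks fibroblasts, had counts of 18.0, 22.4 and 22.5 in the 5-day co-cultures, 46.5, 47.3 and 61.2 in the 3-day co-cultures, and 126.9, 234.6 and 206.3 in the monocultures. Like Fgf10, it was lowest at 5 days, higher at 3 days and highest in monoculture, with no overlap. S100a4 averaged 476 ± 118, 744 ± 31.2 and 3605 ± 2152 in 5-day co-cultures, 3-day co-cultures and monocultures (SD, n = 3 each). The part of the fibroblast markers' cells in the falls of Fgf10 and Hgf was not tested. Of 5 tested leukocyte markers, only Csf1r was called at 5 days against monoculture, as lower (limma, adjusted p = 0.012), and 0 at 3 days. Csf1r means were 6.4, 19.1 and 17.1 in 5-day co-cultures, 3-day co-cultures and monocultures. It was lower at 5 than at 3 days too (adjusted p = 0.022), a call lost without 5-day replicate 1 or 3 or 3-day replicate 2 or 3. The part of the leukocyte markers' cells in the Hgf values was not tested. Fabp4, the 1 adipocyte marker in the table, was 9.0 to 16.2 in 5-day co-cultures and 5.0 to 22.3 in 3-day co-cultures, against 93.5 to 145.2 in monocultures, lower at both times as was Fgf10. The other adipocyte markers, Adipoq and Plin1 among them, were not in the table, and the part of adipocyte-lineage cells in the Fgf10 values was not tested. The sums of 5 pericyte and smooth muscle markers were 205.9 to 250.7, 183.6 to 245.8 and 56.8 to 125.0 in 5-day co-cultures, 3-day co-cultures and monocultures. Of the 4 tested, only Cspg4 was called at 5 days, with means of 108.8 against 10.2 in monoculture. At 3 days Cspg4 and Des were called higher, Des at an adjusted p of 0.040 (limma). The list had 1 call at 3 days without any 1 of the 5-day replicates, 3-day replicate 1 or 2, or monoculture replicate 2. Des and Notch3 were higher at 5 days without a call, and Myh11 was lower without a call, at 7.2 against 13.7. The part of these markers' cells in the Hbegf and Areg values was not tested.

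**Figure D3:**
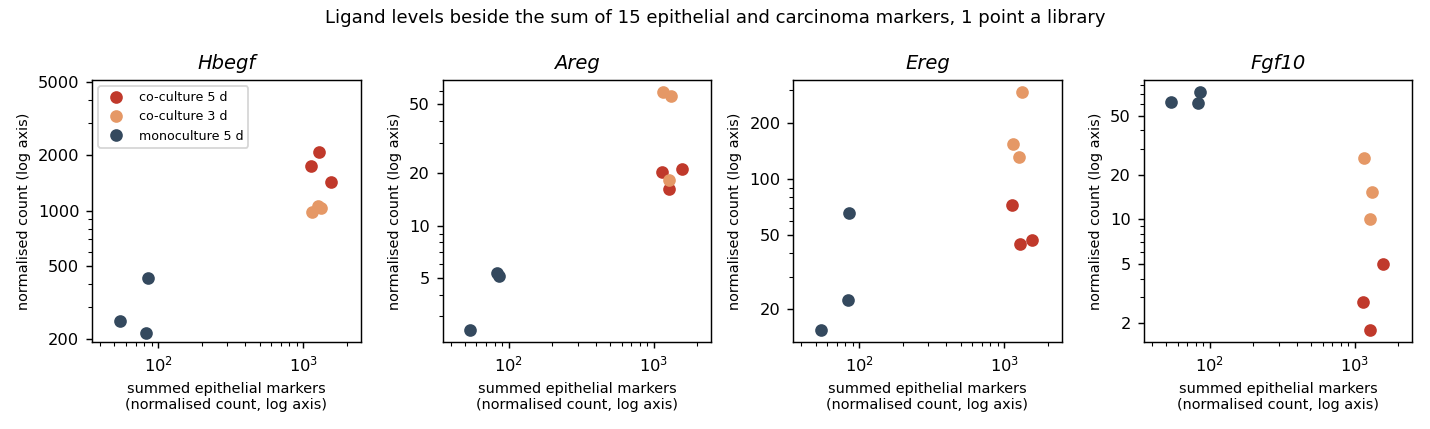
Normalised counts of Hbegf, Areg, Ereg and Fgf10 in each library (log axis) against the summed epithelial and carcinoma markers of that library (log axis), coloured by group. Monocultures lie at sums of 54.3 to 85.3 and co-cultures of both times at 1137.3 to 1566.6, and the co-culture points of Hbegf, Ereg and Fgf10 separate by day at overlapping sums. Some single markers within the sums, such as Krt8 and Lcn2, also separate by day.

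The other FGF ligand genes tested were Fgf11, Fgf18 and Fgf21. At 5 days 2 of the 3 were higher than in monoculture and 0 lower, and at 3 days 2 were higher and 1 lower. Fgf18, whose product acts mainly on mesenchymal FGF receptors, had counts of 225.5, 174.2 and 173.5 in the 5-day co-cultures, 136.2, 137.1 and 146.1 in the 3-day co-cultures, and 46.4, 35.6 and 36.0 in the monocultures. Both co-cultures were above the monocultures with no overlap, at log2 fold changes of 2.25 (limma, adjusted p = 4.9e-07) and 1.81 (adjusted p = 8.2e-06). Fgf21, an endocrine FGF, had counts of 25.2, 32.6 and 32.5 in the 5-day co-cultures, 197.6, 213.7 and 116.9 in the 3-day co-cultures, and 10.5, 13.5 and 10.3 in the monocultures. It was highest at 3 days, as was Ereg: its log2 fold changes were 1.32 after 5 days (adjusted p = 0.0019), 3.79 after 3 days of co-culture (adjusted p = 9.6e-08) and -2.47 between 5 and 3 days (adjusted p = 8.6e-05). Fgf11, an intracellular FGF homologous factor, was lower at 3 days at -1.51 (adjusted p = 0.042). That call was lost without 5-day replicate 3, 3-day replicate 1 or 3, or monoculture replicate 1 or 2, with log2 fold changes of -1.53 to -1.01 and adjusted p between 0.058 and 0.19. It was also lost with edgeR (adjusted p = 0.052), DESeq2 (0.064), array weights (0.18) and a fit of the compared groups alone (0.065).

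Among 8 tested FGF receptor, co-receptor and binding protein genes other than Fgfr1, 1 was higher and 2 were lower at 5 days against monoculture, 1 was higher and 1 lower at 3 days, and 0 passed between 5 and 3 days. Fgfbp1, which encodes a carrier that frees FGFs from the matrix, had 34 reads in the 5-day co-cultures and 27 in the 3-day co-cultures, against 0 in the monocultures. It was at least 19.9-fold and 17.1-fold higher than a floor of 3 counts over the monocultures. The epithelial marker Cldn3 was likewise at 0 in the monocultures, with means of 10.2 in 5-day and 15.1 in 3-day co-cultures. The part of the epithelial markers' cells in the Fgfbp1 values was not tested. Fgfrl1, a receptor without a kinase domain, was lower at 5 days: counts of 60.2, 62.4 and 66.2 in the co-cultures, against 117.6, 128.8 and 144.6 in the monocultures, gave a log2 fold change of -1.03 (limma, adjusted p = 0.0013). Fibp, which encodes an FGF1-binding protein, was lower at 3 days, with 126.2, 114.9 and 94.6 in the co-cultures, against 209.2, 195.2 and 180.0 in the monocultures (log2 fold change -0.80, adjusted p = 0.0095). Fgfr2 had 1 read over the 5-day co-cultures and 32 over the monocultures, a scaled ratio of 0.0549 (95% counting interval 0.00135 to 0.329), and the epithelial form of this receptor cannot be told apart in 3′ end counts. Its call at 5 days was lost without 5-day replicate 2 or 3, 3-day replicate 2, or monoculture replicate 2 or 3 (adjusted p between 0.053 and 0.13), and with a pseudocount of 5 (0.056). Without 3-day replicate 1 the list had 1 call between 5 and 3 days.

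Of 8 tested genes of HGF activation and its receptor, 3 were higher and 1 was lower at 5 days against monoculture, 2 were higher and 0 lower at 3 days, and 1 was higher at 5 than at 3 days. St14, which encodes matriptase, a membrane protease that can activate HGF, had counts of 13.5, 12.1 and 21.2 in the 5-day co-cultures, 24.9, 11.1 and 22.3 in the 3-day co-cultures, and 1.2, 1.0 and 0.6 in the monocultures. Its log2 fold changes were 3.08 (limma, adjusted p = 5.2e-05) and 3.34 (adjusted p = 3.7e-05). Spint1, which encodes an inhibitor of matriptase and of the HGF activator, rose by 2.50 after 5 days (adjusted p = 0.00063) and by 2.59 after 3 days of co-culture (adjusted p = 0.00059). Both are genes of epithelial cells, the epithelial markers given above were also higher at both times, and their part in these rises was not tested. Plat, which encodes tissue plasminogen activator, had counts of 540.9, 467.6 and 551.8 in the 5-day co-cultures, 275.7, 252.7 and 240.7 in the 3-day co-cultures, and 301.4, 297.1 and 303.4 in the monocultures. It was higher at 5 days than in monoculture (0.78, adjusted p = 0.0019) and than at 3 days (1.02, adjusted p = 0.0012). Plau, which encodes urokinase, was lower at 5 days at -1.27 (adjusted p = 0.023), a call lost without 5-day replicate 1 (adjusted p = 0.099), monoculture replicate 1 (0.070) or monoculture replicate 3 (0.12). Met itself had counts of 7.2, 6.5 and 6.2 in the 5-day co-cultures, 1.7, 9.7 and 5.6 in the 3-day co-cultures, and 3.7, 6.7 and 9.0 in the monocultures, with no call.

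Of the 11 EGF-family ligand genes looked for, 5 were in the table, and besides the members this was Tgfa. Tgfa, which encodes a ligand of EGFR, stayed under the filter on low values with 3.6, 2.8 and 0 in the 5-day co-cultures, 0, 1.4 and 2.8 in the 3-day co-cultures, and 0 in each monoculture, and was not tested. Of 8 tested ERBB receptor and inhibitor genes, 1 was higher and 1 lower at 5 days against monoculture, 1 was higher at 3 days, and 0 passed between 5 and 3 days. Egfr, the receptor of HB-EGF, amphiregulin and epiregulin, had counts of 258.8, 266.4 and 201.0 in the 5-day co-cultures, 265.7, 302.8 and 311.6 in the 3-day co-cultures, and 289.0, 242.7 and 225.6 in the monocultures, with no call. Lrig1, which encodes a negative regulator of ERBB receptors, rose by 0.91 after 5 days (limma, adjusted p = 0.038) and by 0.96 after 3 days of co-culture (adjusted p = 0.035). The 5-day call was lost without 5-day replicate 2 or 3 or monoculture replicate 1 or 2 (adjusted p 0.086 to 0.17), and the 3-day call without 3-day replicate 1 or 3 or monoculture replicate 1 or 2 (0.056 to 0.14). Both were also lost with array weights (0.13 and 0.14) and edgeR (0.054 and 0.051), the 5-day call with quantile normalization (0.057) and the 3-day call when the compared groups alone were fitted (0.052). Lrig3, a relative of Lrig1, was lower at 5 days at -0.75 (adjusted p = 0.045). That call was lost without any 1 of the 5-day replicates, 3-day replicate 2, or monoculture replicate 1 or 2 (0.051 to 0.23), with quantile normalization (0.061) and with array weights (0.088). The number of calls in this list was 0 to 3 at 5 days and 0 to 2 at 3 days when 1 library was left out.

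Of 13 tested genes of ligand-shedding proteases and their partners, 4 were higher at 5 days against monoculture, 2 were higher at 3 days, 1 was higher at 5 than at 3 days, and 0 were lower in any of these. Adam8, which encodes a metalloprotease, had counts of 26.1, 35.4 and 44.9 in the 5-day co-cultures, 34.9, 25.8 and 41.7 in the 3-day co-cultures, and 2.5, 11.5 and 4.5 in the monocultures. Its log2 fold changes were 2.52 (limma, adjusted p = 0.00028) and 2.47 (adjusted p = 0.00044). Rhbdf2, which encodes iRhom2, a partner of ADAM17 in its transport to the surface, had counts of 44.0, 35.4 and 72.4 in the 5-day co-cultures, 76.4, 56.4 and 51.5 in the 3-day co-cultures, and 18.6, 4.8 and 20.6 in the monocultures. It rose by 1.87 (adjusted p = 0.0037) and 2.19 (adjusted p = 0.0015). Adam17, the main sheddase of amphiregulin, epiregulin and HB-EGF, had counts of 96.1, 107.1 and 88.6 in the 5-day co-cultures, 88.0, 79.4 and 71.0 in the 3-day co-cultures, and 104.6, 114.4 and 106.0 in the monocultures, with no call. Timp3, which encodes an inhibitor of ADAM17, was higher at 5 days than in monoculture (1.22, adjusted p = 0.00044) and than at 3 days (1.04, adjusted p = 0.0066). The fourth call, Bace1, a protease that cleaves neuregulin 1, was at 0.66 at 5 days (adjusted p = 0.011) and was lost without monoculture replicate 2 (0.55, adjusted p = 0.059).

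Of 24 tested genes of heparan sulfate proteoglycans and their enzymes, 2 were higher and 6 lower at 5 days against monoculture, as many were higher and lower at 3 days, and 1 was higher at 5 than at 3 days. Sdc4, which encodes syndecan 4, a membrane proteoglycan that binds FGFs, had counts of 10.8, 9.3 and 18.7 in the 5-day co-cultures, 16.6, 39.0 and 25.0 in the 3-day co-cultures, and 86.0, 76.9 and 102.2 in the monocultures. It fell by 2.73 (limma, adjusted p = 1.4e-05) and 1.75 (adjusted p = 0.0013) on the log2 scale. Sdc1, which encodes syndecan 1, went the other way at 5 days, with 994.6, 830.8 and 834.0 in the 5-day co-cultures, 474.9, 599.4 and 574.6 in the 3-day co-cultures, and 488.3, 387.9 and 455.7 in the monocultures. Its rise against monoculture was 1.00 (adjusted p = 0.00046), and that against 3 days 0.69 (adjusted p = 0.024). The second was lost without 5-day replicate 1 or 2 or 3-day replicate 1 or 2 (adjusted p 0.051 to 0.096) and with quantile normalization (0.062). Gpc3, which encodes glypican 3, had 1 read in the 5-day co-cultures and 3 in the 3-day co-cultures, against 69 in the monocultures, scaled ratios of 0.0255 (95% counting interval 0.000636 to 0.147) and 0.0828 (0.0167 to 0.252). Gpc4 was lower at 5 days (-0.74, adjusted p = 0.0045) and at 3 days (-0.54, adjusted p = 0.035). Ndst1, an N-deacetylase of heparan sulfate, was lower at 3 days (-0.80, adjusted p = 0.011). Glce, an epimerase of the same pathway, was higher at 3 days (0.74, adjusted p = 0.016, but 0.65 and 0.068 without monoculture replicate 1). When 1 library was left out, the list had 5 to 8 calls at 5 days, the 5 without monoculture replicate 2. At 3 days it had 4 to 8, with fewer than 6 without 3-day replicate 2 or any 1 of the monocultures. Between 5 and 3 days it had 0 to 2.

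Of 17 tested targets and feedback inhibitors of the ERK pathway, 6 were higher and 3 lower at 5 days against monoculture, 5 were higher and 2 lower at 3 days, and 1 was lower at 5 than at 3 days. Phlda1 had counts of 976.6, 1015.2 and 1436.9 in the 5-day co-cultures, 1738.6, 1596.9 and 1657.0 in the 3-day co-cultures, and 426.4, 386.0 and 516.7 in the monocultures. It rose by 1.35 (limma, adjusted p = 5.6e-05) and 1.92 (adjusted p = 2.7e-06). Etv4, a transcription factor gene that FGF signals induce, rose by 1.36 after 5 days (adjusted p = 0.0025) and by 1.20 after 3 days of co-culture (adjusted p = 0.0069). Dusp4, a phosphatase of ERK, rose by 1.44 at 5 days (adjusted p = 0.0037). At 3 days it rose by 1.11 (adjusted p = 0.022), with values that overlapped those of the monocultures. Fosl1, an AP-1 subunit, rose by 0.84 at 3 days (adjusted p = 0.0047) and by 0.54 at 5 days (adjusted p = 0.048). Egr1, an immediate early transcription factor gene, went the other way. Its counts were 426.8, 639.9 and 500.6 in the 5-day co-cultures, 788.8, 1288.5 and 1217.4 in the 3-day co-cultures, and 1617.2, 1788.1 and 1776.5 in the monocultures. It was lower at 5 days than in monoculture (-1.74, adjusted p = 1.3e-05) and than at 3 days (-1.06, adjusted p = 0.0058). At 3 days it was also lower than in monoculture (-0.68, adjusted p = 0.028). Spry1, a feedback inhibitor, was lower at 5 days (-1.27, adjusted p = 0.0074) and at 3 days (-1.19, adjusted p = 0.012). The 3-day call was lost without 3-day replicate 1 (-0.92, adjusted p = 0.059) or monoculture replicate 3 (-1.06, adjusted p = 0.057). When 1 library was left out, the list had 7 to 10 calls at 5 days and 3 to 7 at 3 days, with fewer than 5 without 3-day replicate 1 or monoculture replicate 3. Between 5 and 3 days it had 1 or 2, the 2 without 5-day replicate 3, 3-day replicate 3 or monoculture replicate 1.

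The median log2 fold change at 5 days against monoculture was 1.32 over the FGF ligand genes that are not members, -0.22 over the FGF receptor list, 0.33 over the HGF list and -0.06 over the ERBB list. It was 0.37 over the shedding list, -0.35 over the heparan sulfate list and -0.03 over the ERK list, beside -0.01 over all genes. At 3 days these medians were 1.81, -0.37, 0.08, 0.36, 0.18, -0.33 and 0.23 in the same order of lists, beside 0.00 over all genes. Between 5 and 3 days they were 0.27, 0.13, -0.18, -0.04, 0.19, -0.01 and -0.30, beside -0.01. Over all genes, 12.6% were called higher and 11.4% lower at 5 days against monoculture, and 10.6% and 9.37% at 3 days. Between 5 and 3 days these shares were 3.20% and 3.71%. If the number of calls in a list differed from these shares was not tested.

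**Figure D4:**
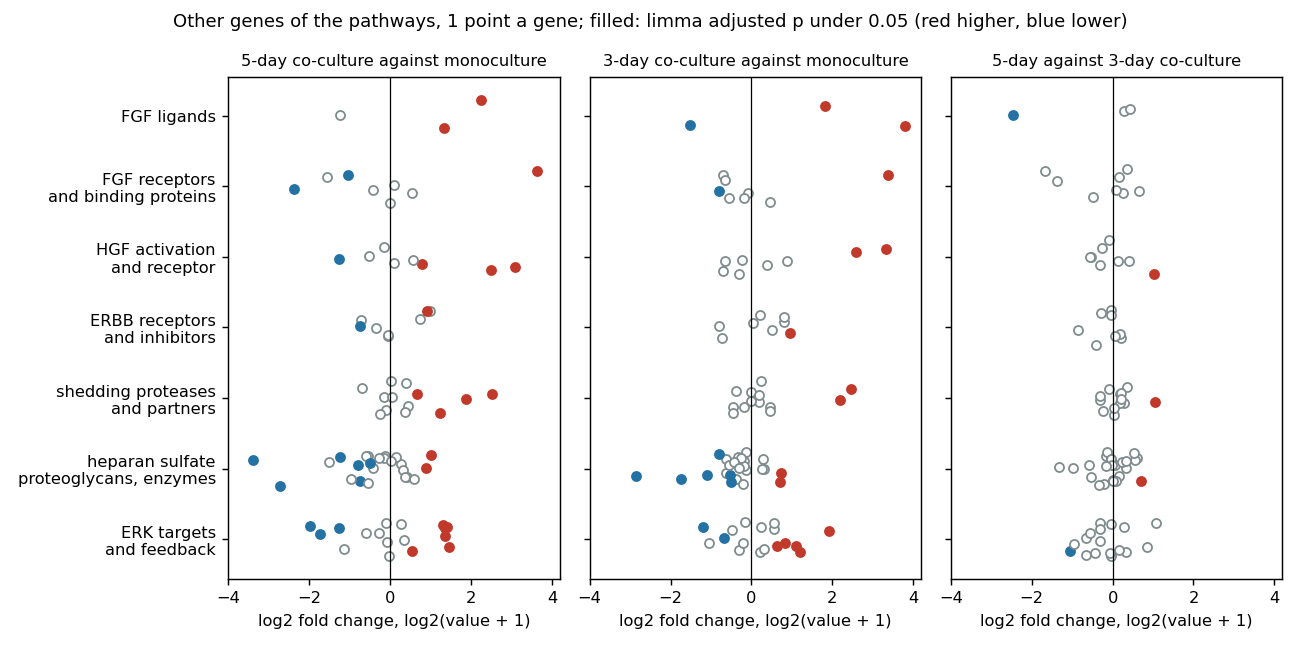
Log2 fold changes (limma) of the tested genes of 7 pathway lists other than the members, 1 point a gene, in 5-day co-culture against monoculture, 3-day co-culture against monoculture, and 5-day against 3-day co-culture. Filled points passed an adjusted p under 0.05, red where higher and blue where lower, with Fgf21 at 3.79 at 3 days and Sdc4 at -2.73 at 5 days.

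The genes whose profile over the 9 libraries was most like that of each called member were found by the root mean square difference of log2 values, each gene centred on its own mean, among 7369 genes of mean at least 20. Nearest to Fgf10 were Cemip (0.35), Nsg1 (0.38) and 1500015O10Rik (0.47), and Cemip, which encodes a protein of hyaluronan breakdown, averaged 37.7, 134 and 608 in 5-day co-cultures, 3-day co-cultures and monocultures. Nearest to Hgf were Dusp23 (0.20), Pex11a (0.21) and Cpq (0.21). Hbegf was most like Slc20a1 (0.25), Chst11 (0.26) and Col7a1 (0.27), and Slc20a1, a phosphate transporter gene, averaged 1350, 818 and 198 in the same order. Ereg was most like Tslp (0.32), Itga4 (0.45) and Ch25h (0.52), and Tslp, an epithelial and stromal cytokine gene, averaged 45.1, 201 and 35.4 in that order. Nearest to Areg were Fxyd6 (0.46), Stk38l (0.47) and Osgin2 (0.49). These are descriptions of 9 libraries and carry no test.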

How the data were processed

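RNA of sorted fibroblasts was sequenced from the 3′ end in 9 libraries, 3 per group. Per the submitters' processing notes, bcl2fastq, STAR 2.4.2a, HTSeq and mm10 were used; the annotation, strand setting, gene filter and size-factor method are not given in the sources used here. The authors deposited normalised counts (a signal in read-count-like units, each library divided by a factor of its own). Whole reads were recovered from the low values: 99.98% to 100.00% of the values of each library lay within 0.051 normalised counts of a whole number of reads. Intervals and floors cover counting error only.

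Genes that reached 5 in 3 or more libraries (10639 of 11931) were tested on log2(value + 1), which understates changes of low genes, with limma 3.58.1 (R 4.3.3; eBayes with trend, all 9 libraries in 1 model, two-sided, Benjamini-Hochberg adjustment over all tested genes, threshold 0.05). This replaces a count test because the deposited values are not raw counts. On the recovered reads, edgeR 4.0.16 (quasi-likelihood) called 2736, 2239 and 677 genes for 5-day co-culture against monoculture, 3-day co-culture against monoculture, and 5 against 3 days, and DESeq2 1.42.0 called 2550, 2049 and 746; limma called 2552, 2129 and 735. Single genes were also compared with the exact permutation test (scipy 1.17.1). A chi-square test of reads over the 9 pairs of libraries within a group found no pair that agreed within sampling noise. The scripts were tested on simulated reads.

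Members and lists were chosen with earlier results of these data known. The text names all members, up to 4 called genes per pathway list and comparison by the smallest adjusted p (or the highest tested gene), and 3 nearest profiles per called member; Met, Egfr, Adam17, Tgfa and Nudt6 were added where a result turns on them. Of the pathway genes that this rule took, those without a value in the text are not described. Positions are from GENCODE M21 on mm10, and promoter sequences from RefSeq on GRCm38.p6, where sequences of 5 of 9 members were used. Alternatives were 2 pseudocounts (0.5 and 5), a filter on the mean (20 or more) or none, TMM and median-of-ratios rescaling, the replicate number as a block, quantile normalization, fitting the compared groups alone, array weights, edgeR, DESeq2, and leaving out each library.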

Additional observations from a re-analysis of the deposited data

Results flagged for a closer look

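Of the 9 genes, 2 differed between the days of co-culture in the test of the difference itself (limma, adjusted p under 0.05). Over all genes tested, 6.91% were called there, 3.71% as lower. Fgf10 had a log2 fold change of -2.08 at 5 against 3 days, with 1.8, 2.8 and 5.0 at 5 days and 10.0, 25.8 and 15.3 at 3 days, so that it lay further below monoculture at 5 days. The 5-day values of Fgf10 rest on 9 reads. Ereg had a log2 fold change of -1.74, with 44.9, 72.6 and 47.4 at 5 days and 131.2, 154.5 and 295.0 at 3 days, and was above monoculture at 3 days. The Ereg call between the days was lost without 5-day replicate 1 or 3 or 3-day replicate 2 or 3 (limma, adjusted p 0.057 to 0.080). Without a monoculture of 3 days, the time of co-culture and the time in culture cannot be told apart for either gene.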

How the results depend on the processing

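For the members, 531 values under an alternative kept their direction and side of the threshold, 5 lost a call, 16 gained one and 12 changed sign. For the other named genes these numbers were 947, 49, 0 and 1. The genes called numbered 2000 to 2994 at 5 days and 1637 to 3004 at 3 days against monoculture over the alternatives with all libraries, and 1935 to 2759 and 1534 to 2132 when 1 library was left out. Between 5 and 3 days of co-culture, array weights called 1124 genes and leaving out 1 library 323 to 739. The members called there were 4 when only the groups compared were fitted, 5 with array weights and 1 to 3 with 1 library left out. Against monoculture they were 3 to 5 at 5 days and 4 to 5 at 3 days with 1 library left out.

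The log2 fold changes that changed sign were all of genes without a call with all libraries, and the cause was not tested. For Fgf2 at 5 days against monoculture they were 0.26 with array weights and -0.95 to 1.25 with 1 library left out, positive without monoculture replicate 1. For Fgf2 at 3 days they were -0.76 with edgeR, -0.88 with DESeq2, and -0.62 to 1.58 with 1 library left out, negative without 3-day replicate 2 or monoculture replicate 2 or 3. With 1 library left out, Fgf7 at 3 days was at -0.049 to 0.71, negative without monoculture replicate 1. Nrg1 was at -0.59 to 0.012 at 5 days and -0.44 to 0.16 at 3 days, positive without monoculture replicate 1, and at -0.36 to 0.099 between 5 and 3 days, positive without 5-day replicate 1 or 3-day replicate 3. Errfi1 was at -0.15 to 0.48 between 5 and 3 days, negative without 5-day replicate 2.

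With the replicate number as a block, 2663, 2219 and 827 genes and 4, 4 and 3 members were called. Same-numbered libraries of different groups correlated at -0.114 to 0.233, with 4 of 9 pairs over 0.1, and others at -0.298 to 0.323, with 4 of 18 over 0.1. With 3 libraries in each group, these overlapping ranges cannot tell if the numbers pair the libraries. Few reads limit the size of the changes of Fgf10, with 9 over the 5-day co-cultures, and of Areg, with 23 over the monocultures.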
